A study of Mus musculus with 24 samples.

Results

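The 6 genes Abcb1a, Abcg2, Abcc1, Abcc4, Abcc5 and Abcc6 encode efflux transporters of the ATP-binding cassette (ABC) superfamily that are known from the blood-brain barrier. They were taken by their symbols from a table of 17270 genes, and all 6 were among the 15982 genes tested. RNA was sequenced from brain microvessels of male C57BL/6J mice aged 10 to 12 weeks. The mice underwent transient middle cerebral artery occlusion (tMCAO) of the right side for 60 min or sham surgery, in which the same filament was pulled back at once after it was in place. Microvessels were taken 24 h or 7 days later from the ipsilateral (right) or the contralateral hemisphere. This gave 8 groups of 3 libraries, and each library held the vessels of 3 pooled hemispheres. Per the study's methods, more libraries had been made, and some identified as outliers were removed before the analysis, so that the spread reported here is that of the retained libraries. All groups, sham included, shared isoflurane anaesthesia, filament surgery, buprenorphine and warmed cages, so that no group was free of surgery. Feeding by mouth and saline under the skin were part of a support fitted to the need of each mouse, and so could differ between mice. Buprenorphine was given only early after surgery, so that mice at 24 h were within the dosing period and mice at 7 days were past it. Per the study, stroke-related mortality was higher in the 7 day cohort. Ipsilateral vessels came from whole hemispheres and therefore from infarcted and spared tissue together. The labels do not say which mice entered which pool, and p-values measure the spread between these libraries.

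ABC efflux transporters use ATP to move drugs, metabolites and signalling molecules out of cells. At the blood-brain barrier, pumps in the luminal membrane of endothelial cells return lipophilic drugs and conjugates to the blood, and they are a well known reason why many drugs reach the brain poorly. Abcb1a encodes P-glycoprotein, the main efflux pump of mouse brain endothelium, and Abcg2 encodes breast cancer resistance protein (Bcrp), which works as a dimer. Abcc1, Abcc4, Abcc5 and Abcc6 encode the multidrug resistance-associated proteins Mrp1, Mrp4, Mrp5 and Mrp6. Mrp1 carries glutathione conjugates such as leukotriene C4, Mrp4 carries organic anions, cyclic nucleotides and prostaglandins, Mrp5 carries cyclic nucleotides, and Mrp6 is known for cellular ATP release and for the calcification that follows its loss.

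Values are normalised counts, that is, reads of a gene divided by a size factor of the library. The libraries summed to 15924780 to 18787932 normalised counts, and the lowest value of any of the 6 genes in any library was 173. At the levels of Abcc1, Abcc5 and Abcc6, counting error can be as large as the spread between libraries in some groups. Endothelial content was read from 12 endothelial marker genes, which summed to between 255738 and 370435 normalised counts in every library, with none of them at 0. Pericyte and smooth muscle markers summed to between 78312 and 184882, so that the endothelial sum does not show which cells the transporter RNA came from. On the scale of normalised counts per kb of exon, averaged over the 24 libraries, Abcb1a stood highest at 5449. Abcc4 followed at 1765 and Abcg2 at 1458. The other three lay far below, with Abcc5 at 82.0, Abcc6 at 62.3 and Abcc1 at 31.3 per kb. The order within the upper and within the lower genes depends on the lengths used, those of all annotated exons. These were 6.39 kb for Abcc4, 8.15 kb for Abcg2 and 15.1 kb for Abcc1. Without division by length Abcg2 averaged 11889 normalised counts and Abcc4 11278. In coordinates of the mouse build mm10 (GRCm38), Abcb1a (ENSMUSG00000040584) lies on chromosome 5 from 8660077 to 8748575, plus strand. Abcg2 (ENSMUSG00000029802) lies on chromosome 6 from 58596671 to 58695676, plus strand. Abcc4 (ENSMUSG00000032849) lies on chromosome 14 from 118482692 to 118706219, minus strand. Chromosome 16 carries both Abcc1 (ENSMUSG00000023088, 14361560 to 14475737, plus strand) and Abcc5 (ENSMUSG00000022822, 20331303 to 20426394, minus strand). Abcc6 (ENSMUSG00000030834) lies on chromosome 7 from 45976380 to 46030302, minus strand. The reads were counted over exons of these protein-coding genes.

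**Figure D1:**
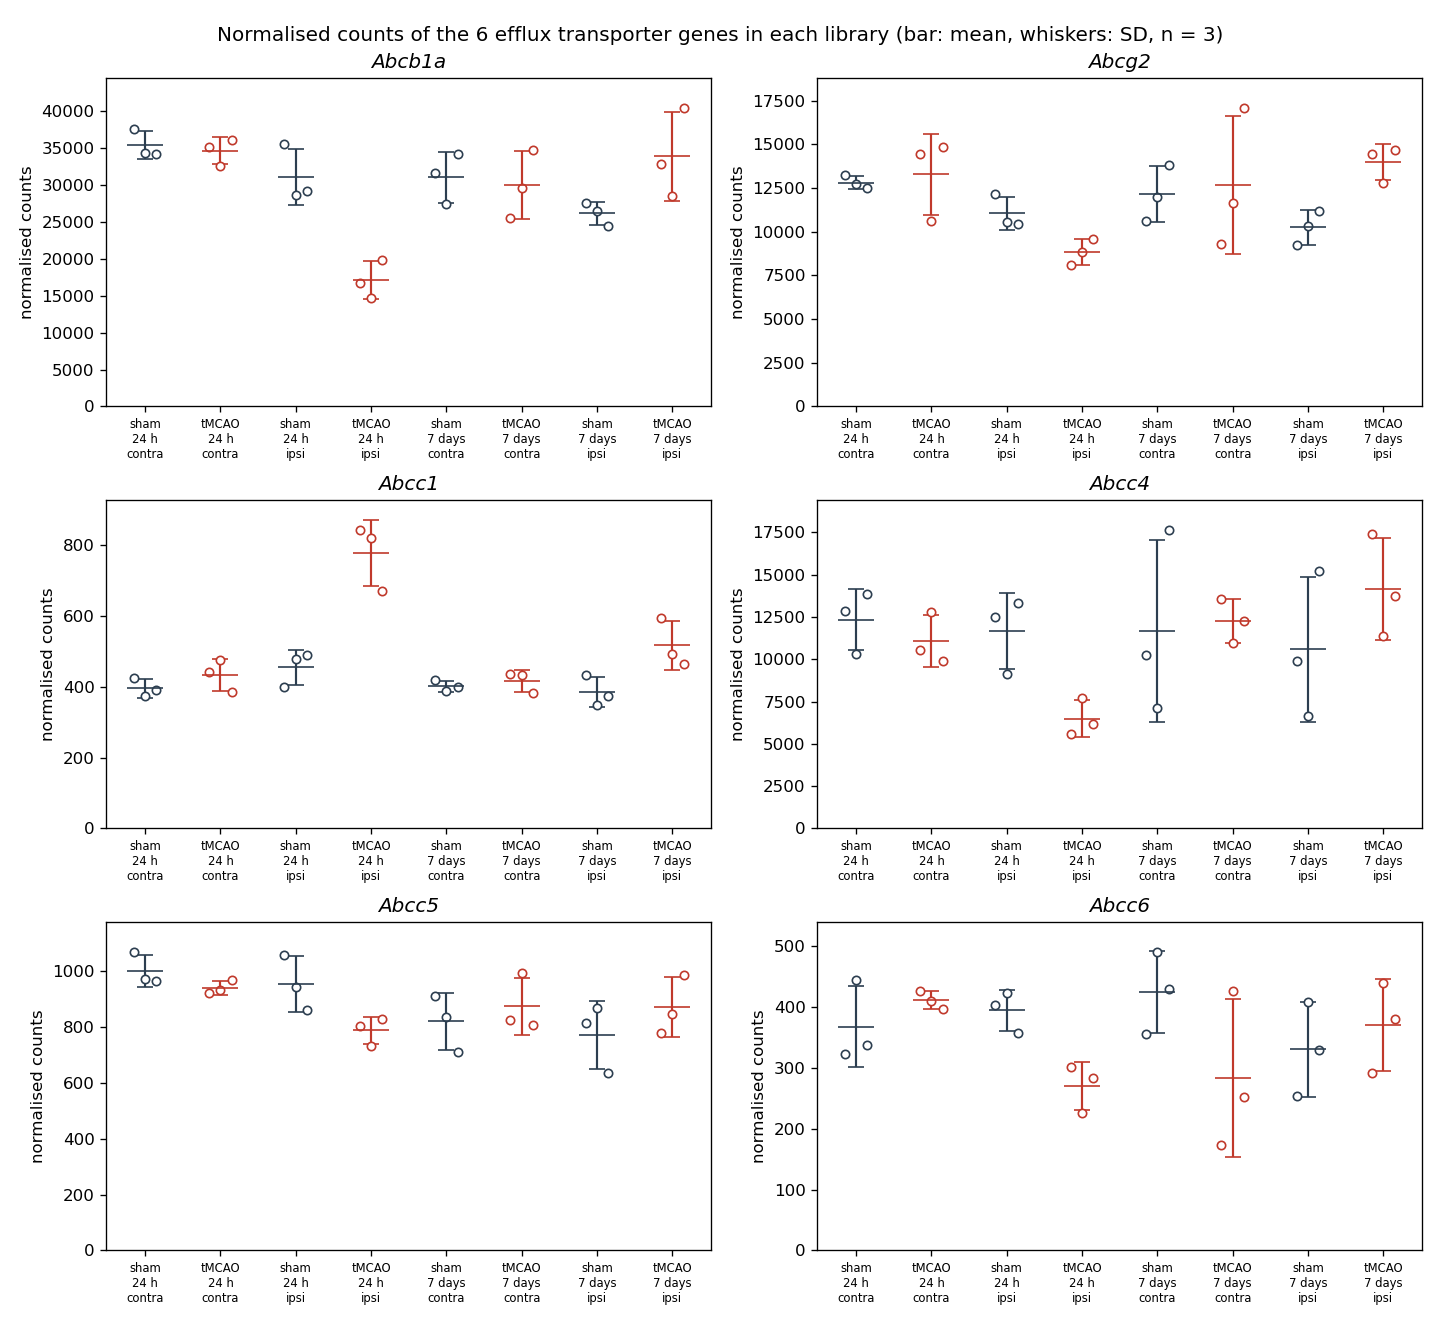
Normalised counts (vertical axes, from 0) of the 6 genes in the 8 groups (horizontal axes). Open circles are libraries, horizontal bars the mean and whiskers the SD of 3 libraries, red for tMCAO and dark for sham. The ipsilateral tMCAO libraries at 24 h lie below all other libraries for Abcb1a and above all other libraries for Abcc1.

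The promoters of Abcg2 and Abcc4 are shown because both genes moved in the same direction between 24 h and 7 days in the ipsilateral vessels. RefSeq promoter windows (GRCm38.p6) were at hand for 4 of the 6 symbols, and 3 of them, those of Abcg2, Abcc4 and Abcc5, began within 1 base of the gene start in the deposited table. The window of Abcb1a lay 92986 bases away from it and was not used. The 250 bases before the start of Abcg2 are chr6:58596422-58596671, plus strand, and those of Abcc4 are chr14:118706220-118706469, minus strand. Capitals mark the GC box GGGCGG on either strand.
Abcg2: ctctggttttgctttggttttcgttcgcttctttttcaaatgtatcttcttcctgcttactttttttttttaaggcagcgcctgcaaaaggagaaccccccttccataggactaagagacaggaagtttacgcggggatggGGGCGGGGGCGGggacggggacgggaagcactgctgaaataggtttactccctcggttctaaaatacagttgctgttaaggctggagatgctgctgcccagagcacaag
Abcc4: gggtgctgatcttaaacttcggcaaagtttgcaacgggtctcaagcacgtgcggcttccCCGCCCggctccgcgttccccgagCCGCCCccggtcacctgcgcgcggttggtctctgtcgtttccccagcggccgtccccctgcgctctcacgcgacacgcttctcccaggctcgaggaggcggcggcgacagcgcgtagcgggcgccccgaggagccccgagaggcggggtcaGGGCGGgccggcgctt
The window of Abcg2 held 2 GC boxes and that of Abcc4 held 3, while 32.7% of 32851 promoter windows of the same length held at least 1. Both strands were searched for 4 more motifs, none of which overlapped another match. The xenobiotic response core GCGTG, present in 28.2% of all windows, matched Abcc4 in 2 places and Abcg2 in none. The antioxidant response element TGACNNNGC, present in 10.2% of all windows, matched Abcc4 in 1 place and Abcg2 in none. CCAAT (33.8% of all windows) and the AP-1 site TGANTCA (6.75%) matched neither. The window of Abcc5 held none of the 5 motifs. GC content was 50% before Abcg2, 72.0% before Abcc4 and 64.0% before Abcc5, against a median of 52.4% over all windows. A match of letters is a description of the window and not a site of binding.

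In ipsilateral vessels 24 h after tMCAO, Abcb1a and Abcc4 were downregulated and Abcc1 was upregulated against ipsilateral sham vessels. Abcb1a fell by 45.2% and Abcc4 by 44.2%, while Abcc1 was 1.71-fold higher. Abcg2, Abcc5 and Abcc6 had lower values in tMCAO that were not called. The question here is how ischemia with reperfusion alters transporter RNA at an early time, on the side of the occluded vessel. A gene was called at a Benjamini-Hochberg adjusted p under 0.05, from limma on log2(normalised count + 1) over all 15982 genes, together with a fold change beyond 1.5 in either direction. By this rule 1 of 6 genes was higher and 2 of 6 were lower, where 10.0% of all tested genes were called higher and 8.23% lower. The 3 libraries of tMCAO did not overlap those of sham for any of the 6 genes, but the same held for 49.0% of all tested genes. The median log2 fold change of the 6 genes was -0.44, beside -0.02 over all tested genes.

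Abcb1a held 35432, 28601 and 29198 normalised counts in the ipsilateral sham libraries at 24 h and 16641, 14711 and 19865 in those after tMCAO. The highest tMCAO library lay well below the lowest sham library. The means were 31077 ± 3783 in sham and 17072 ± 2604 after tMCAO (SD, n = 3), a log2 fold change of -0.87 (SE 0.16, limma adjusted p = 4.4e-04). This call held under all 14 alternatives tried. Of the 50-base windows of the longest Abcb1a transcript, 17% also occur in transcripts of other genes, mostly in those of its neighbour Abcb1b, and reads that fit several genes were left out of the counts. Abcb1b, the second mouse gene for P-glycoprotein, is named here because of this overlap and after its values were seen. It measured 651 ± 121 after tMCAO and 463 ± 44.8 in sham (SD, n = 3), a log2 fold change of 0.48 (limma adjusted p = 0.042) that stayed under the limit on the fold change. None of the windows of the other 5 genes occurred in transcripts of another gene.

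Abcc4 held 12501, 9139 and 13342 normalised counts in ipsilateral sham vessels at 24 h and 5574, 7686 and 6187 after tMCAO. The lowest sham library and the highest tMCAO library lay close together. The means were 11661 ± 2224 and 6482 ± 1087 (SD, n = 3), a log2 fold change of -0.84 (SE 0.28, limma adjusted p = 0.031). The call rested on the full set of libraries. It was lost without sham replicate 1 or 3 or without tMCAO replicate 1 or 3, where the adjusted p lay between 0.066 and 0.11 and the log2 fold change between -0.73 and -0.81, so that 1 of 6 genes was then called lower. Pericyte and smooth muscle markers summed to 102518 and 78312 normalised counts in tMCAO replicates 1 and 2, below the 140776 to 165522 of sham. The sum of tMCAO replicate 3, 140919, lay within the range of sham. The part of these cells in the decreases was not tested.

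Abcc1 held 399, 478 and 489 normalised counts in ipsilateral sham vessels and 842, 821 and 671 after tMCAO. All tMCAO libraries lay above all sham libraries. The means were 455 ± 49.1 and 778 ± 93.3 (SD, n = 3), a log2 fold change of 0.77 (SE 0.12, limma adjusted p = 1.1e-04), and this call also held under all 14 alternatives. It was the only one of the 6 genes with a higher level after tMCAO at this time. Markers of neutrophils and monocytes were also higher in the same libraries, with sums of 3481 to 6785 normalised counts against 351 to 1339 in sham, and their part in the level of Abcc1 was not tested.

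Abcg2 had 12152, 10588 and 10467 normalised counts in sham and 8105, 8842 and 9603 after tMCAO, a log2 fold change of -0.32 (95% interval -0.68 to 0.03, limma adjusted p = 0.16). Its libraries were lower after tMCAO without overlap, yet the interval of the difference included 0. Abcc5 had 1056, 943 and 858 normalised counts in sham and 802, 732 and 827 after tMCAO, with a log2 fold change of -0.27 (95% interval -0.53 to -0.01, limma adjusted p = 0.10). Abcc6 had 404, 423 and 357 in sham and 302, 226 and 283 after tMCAO, with a log2 fold change of -0.55 (95% interval -1.06 to -0.05, limma adjusted p = 0.090). For these 3 genes a change in either direction was not shown, and the intervals still allow a decrease beyond the limit on the fold change for Abcg2 and Abcc6.

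**Figure D2:**
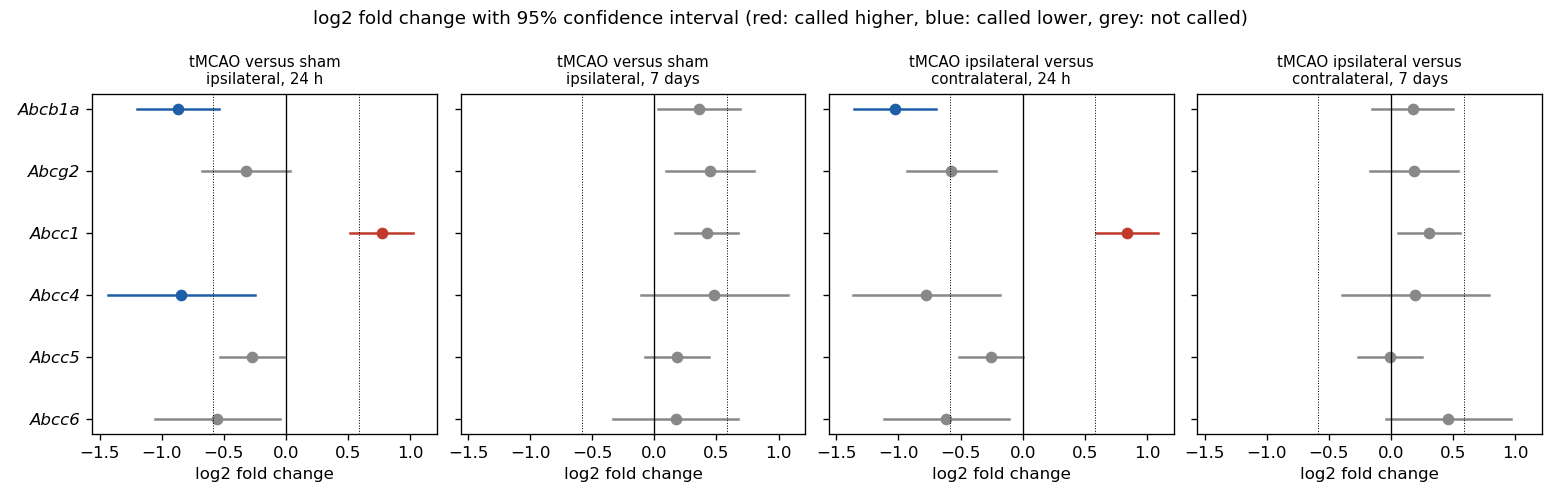
log2 fold change (horizontal axes) of the 6 genes with its 95% interval in 4 comparisons. Red marks genes called higher, blue those called lower, grey those not called, and dotted lines the 1.5-fold limit. At 24 h Abcb1a lies to the left and Abcc1 to the right in both comparisons, and at 7 days no gene is called.

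Both hemispheres of the tMCAO mice were compared to set the side of the occluded vessel against the other side of the brain. At 24 h Abcb1a was lower (log2 fold change -1.03, SE 0.16, limma adjusted p = 1.2e-04) and Abcc1 was higher (0.84, SE 0.12, limma adjusted p = 6.8e-05) in ipsilateral vessels. Thus 1 of 6 genes was called higher and 1 lower, where 8.51% of all tested genes were called higher and 5.14% lower. Contralateral Abcb1a stood at 35095, 32506 and 36045 normalised counts and contralateral Abcc1 at 441, 476 and 386, and neither overlapped the ipsilateral side. The other four did not overlap either, so that all 6 genes were free of overlap, as were 40.8% of all tested genes. Abcg2 stood at 14432, 10636 and 14848 on the contralateral side. Its log2 fold change was -0.58 (limma adjusted p = 0.018), which was short of the limit on the fold change. Abcc4 had 10570, 12779 and 9879 contralaterally and a log2 fold change of -0.78 (limma adjusted p = 0.051). Abcc6 had 427, 410 and 397 and a log2 fold change of -0.61 (limma adjusted p = 0.070). Abcc5 had 919, 930 and 967 and a log2 fold change of -0.26 (limma adjusted p = 0.14). Between 1 and 4 of the 6 genes were called lower over the alternatives, Abcb1a in all of them, and 2 were called without contralateral replicate 2 or ipsilateral replicate 3. The 4 came with median centring, which also moved the median log2 fold change of all tested genes from -0.02 to -0.10. Shares of all tested genes called under these alternatives are not given here, so that the counts are not a result about the 6 genes. The fit was unpaired. With a block for the replicate number Abcc4 and Abcc6 were called lower beside Abcb1a, though the labels do not say that the numbers pair the hemispheres. The comparison uses the same ipsilateral tMCAO libraries as the one against sham, so that both are given side by side and not as separate evidence.

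At 7 days no gene of the 6 was called between ipsilateral tMCAO and ipsilateral sham vessels, and all 6 had higher means after tMCAO. By limma 3 of them had an unadjusted p under 0.05, as did 29.3% of all tested genes. Of all tested genes 3.27% were called higher and 9.95% lower at this time. The median log2 fold change of the 6 genes was 0.39, beside 0.02 over all tested genes. Ipsilateral sham vessels at 7 days had lower means than contralateral sham vessels for all 6 genes, none of them called. Against contralateral tMCAO vessels at 7 days the log2 fold change was 0.17 for Abcb1a and 0.18 for Abcg2. Abcg2 held 9250, 10305 and 11218 normalised counts in sham and 14446, 12798 and 14713 after tMCAO (log2 fold change 0.45, 95% interval 0.09 to 0.81, limma adjusted p = 0.080). Abcb1a held 27471, 26411 and 24429 in sham and 32770, 28391 and 40324 after tMCAO (0.36, 95% interval 0.03 to 0.69, limma adjusted p = 0.13). Abcc1 held 432, 348 and 375 in sham and 594, 493 and 463 after tMCAO (0.42, 95% interval 0.17 to 0.67). These 3 genes did not overlap between the groups, as did 30.0% of all tested genes. For Abcc1 the limma adjusted p was 0.019, and only its fold change stayed under the limit. It would be called higher without that limit, but the share of all tested genes called in that way is not given here.

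The other three overlapped between the groups at 7 days. Abcc4 varied most, with 9892, 6653 and 15186 normalised counts in sham and 17387, 11392 and 13729 after tMCAO (log2 fold change 0.48, 95% interval -0.11 to 1.07, limma adjusted p = 0.28). Abcc5 held 812, 865 and 633 in sham and 776, 844 and 986 after tMCAO (0.18, limma adjusted p = 0.36). Abcc6 held 253, 408 and 330 in sham and 291, 440 and 380 after tMCAO (0.17, limma adjusted p = 0.70). Their intervals do not show that tMCAO and sham were alike. Against the contralateral vessels of the tMCAO mice at 7 days, none of the 6 genes was called, where 3.03% of all tested genes were called higher and 9.98% lower. Only Abcc1 had an unadjusted p under 0.05, as did 26.9% of all tested genes. The contralateral tMCAO libraries at 7 days held 25511, 29488 and 34732 normalised counts of Abcb1a, and 9331, 11639 and 17076 of Abcg2. They held 436, 432 and 382 of Abcc1, which was the 1 gene of the 6 without overlap between the sides, against 25.3% of all tested genes. They held 13557, 10956 and 12235 of Abcc4. The log2 fold changes of the 6 genes in that comparison ran from -0.0079 for Abcc5 to 0.46 for Abcc6, and Abcc6 was called higher (0.80, limma adjusted p = 0.013) when contralateral tMCAO replicate 2 was left out.

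In the ipsilateral tMCAO vessels 4 of the 6 genes changed between 24 h and 7 days. Abcb1a was 1.98-fold higher at 7 days (log2 fold change 0.98, SE 0.16, limma adjusted p = 3.0e-04). Abcc4 was 2.17-fold higher (1.1, SE 0.28, limma adjusted p = 0.0095) and Abcg2 1.58-fold higher (0.66, SE 0.17, limma adjusted p = 0.011). Abcc1 decreased by 33.6% (log2 fold change -0.59, SE 0.12, limma adjusted p = 0.0021). Thus 3 of 6 genes were called higher and 1 lower, where 3.72% of all tested genes were called higher and 8.44% lower. These 4 genes were free of overlap between the times, as were 34.2% of all tested genes, and the other two overlapped. Abcc5 (0.14, limma adjusted p = 0.47) and Abcc6 (0.44, limma adjusted p = 0.21) were not called. Centring on the endothelial markers moved Abcg2 to 0.53, inside the limit on the fold change. Without tMCAO replicate 1 at 24 h only Abcb1a was called higher, and the call of Abcc1 was lost without tMCAO replicate 1 or 2 at 24 h or replicate 2 or 3 at 7 days, since its log2 fold change is close to the limit.

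The tMCAO effect itself was then compared between the times, as the log2 fold change against sham at 7 days minus that at 24 h, in one fit. The difference was 1.23 for Abcb1a (SE 0.22, limma adjusted p = 0.0017). It was 1.32 for Abcc4 (SE 0.40, limma adjusted p = 0.041) and 0.77 for Abcg2 (SE 0.24, limma adjusted p = 0.047). These 3 of 6 genes were called, all in the positive direction, where 2.43% of all tested genes were called positive and 5.68% negative. The value for Abcb1a held under all 20 alternatives, whereas Abcg2 lost its call in 12 and Abcc4 in 10 of the 20. In each of the 12 fits that left out 1 library, 1 or 2 of the 6 genes were called and never all 3. Only Abcb1a was called without sham replicate 1 or 3 or tMCAO replicate 1 at 24 h, and likewise without sham replicate 1 or 2 or tMCAO replicate 1 or 3 at 7 days. The differences for Abcc6 (0.72, limma adjusted p = 0.19), Abcc5 (0.45, limma adjusted p = 0.11) and Abcc1 (-0.35, limma adjusted p = 0.20) were not called, so that a lesser effect on Abcc1 at 7 days than at 24 h was not shown against sham.

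The remaining 7 comparisons serve as controls of side, time and remote effects, and none of the 6 genes was called in any of them. Between the sham hemispheres 0 of all tested genes were called by limma at 24 h and at 7 days, in a fit that did not pair the hemispheres. Still, 367 and 359 genes had an unadjusted p under 0.05, none of them among the 6. In every same-numbered sham pair Abcb1a, Abcg2 and Abcc4 were lower on the ipsilateral side. The log2 ratios ran from -0.049 to -0.48 for Abcb1a, from -0.12 to -0.30 for Abcg2 and from -0.039 to -0.21 for Abcc4. Abcc1, Abcc5 and Abcc6 went both ways. Between contralateral tMCAO and contralateral sham vessels 0 genes were called at 24 h (405 at an unadjusted p under 0.05) and 0.0313% at 7 days. Contralateral vessels of tMCAO mice at 7 days against 24 h gave 0 called genes, with 2637 at an unadjusted p under 0.05. Sham vessels at 7 days against 24 h gave 0.476% on the ipsilateral and 0.332% on the contralateral side. Among the 6 genes, Abcc6 in 2 and Abcc5 in 2 of these comparisons had an unadjusted p under 0.05. Of all 15982 tested genes, 1639 had such a p for contralateral tMCAO against sham at 7 days. For sham vessels between the times 2258 had it on the ipsilateral and 1729 on the contralateral side. Across these controls the largest value among the 6 genes was that of Abcc6, with 355, 490 and 430 normalised counts in contralateral sham and 173, 426 and 252 in contralateral tMCAO vessels at 7 days. The log2 fold change was -0.67 (limma adjusted p = 0.38), and 1 of the 3 tMCAO libraries lay among those of sham. Abcc5 was lower at 7 days than at 24 h in sham vessels on both sides (log2 fold change -0.31 ipsilateral and -0.29 contralateral), but neither was called (limma adjusted p = 0.25 and 0.39).

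The contralateral sham libraries at 24 h held 37568, 34320 and 34152 normalised counts of Abcb1a, 13249, 12721 and 12489 of Abcg2, and 12840, 10329 and 13857 of Abcc4. Those at 7 days held 31546, 27329 and 34115 of Abcb1a and 10622, 11977 and 13821 of Abcg2. Contralateral sham Abcc1 stood at 425, 373 and 390 at 24 h and at 418, 388 and 399 at 7 days, all below every ipsilateral tMCAO library of either time. For Abcb1a the order of the 8 group means ran from contralateral sham at 24 h (35347) down to ipsilateral sham at 7 days (26104) with overlap between all neighbours, and then to ipsilateral tMCAO at 24 h (17072), which did not overlap the group above it. For Abcc1 ipsilateral tMCAO at 24 h (778) stood first and did not overlap the next group, ipsilateral tMCAO at 7 days (517). From there all neighbours overlapped down to ipsilateral sham at 7 days (385). For Abcg2, Abcc4, Abcc5 and Abcc6 every pair of neighbouring groups overlapped. The lowest group was ipsilateral tMCAO at 24 h for Abcg2 (8850), Abcc4 (6482) and Abcc6 (270), and ipsilateral sham at 7 days for Abcc5 (770). Abcc4 had the widest spread within a group, with a coefficient of variation of 46.2% in contralateral and 40.7% in ipsilateral sham vessels at 7 days. There the libraries with the same number in both hemispheres lay close to each other, with 10274 and 9892, 7105 and 6653, and 17623 and 15186 normalised counts.

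Summed over the 6 genes, the ipsilateral tMCAO vessels at 24 h held 5388 ± 481 normalised counts per kb, against 9042 ± 994 in ipsilateral sham (SD, n = 3). At 7 days the sums were 10286 ± 1422 after tMCAO and 7832 ± 526 in sham. Abcb1a made up 52.3% to 66.0% of the sum per kb in each of the 24 libraries. Abcc1 made up 0.968% ± 0.191 of it in ipsilateral tMCAO vessels at 24 h and 0.339% ± 0.0677 in ipsilateral sham. Per kb, Abcb1a exceeded Abcc1 61.8 ± 17.3 times after tMCAO at 24 h, 191 ± 46.2 times in sham at 24 h and 183 ± 49.0 times after tMCAO at 7 days (SD, n = 3). The libraries with the lowest ratios were the 3 of ipsilateral tMCAO at 24 h, between 49.3 and 81.5, and the lowest ratio of any other library was 152. The sums, shares and ratios rest on the lengths of all annotated exons, 5.48 kb for Abcb1a and 15.1 kb for Abcc1. A shorter length for Abcc1 would make the ratios smaller, but the order of the libraries by ratio does not depend on the lengths.

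**Figure D3:**
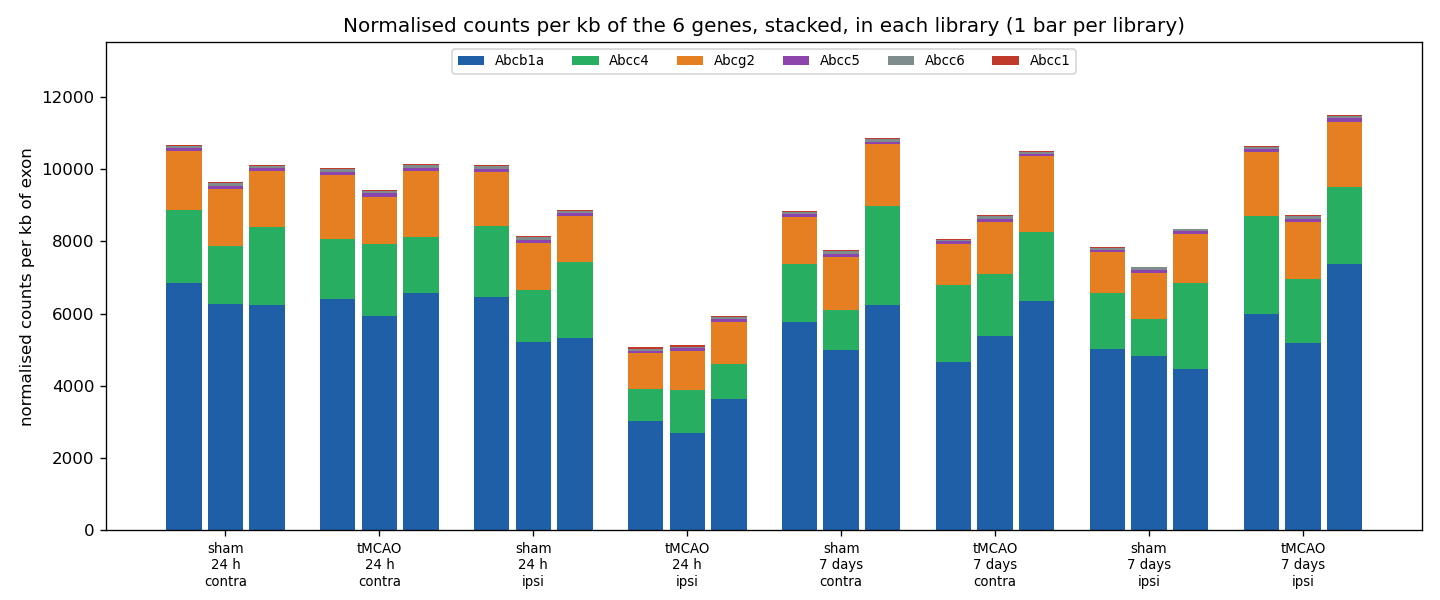
Normalised counts per kb of exon (vertical axis, from 0) of the 6 genes, stacked, with 1 bar per library and 3 bars per group. The 3 bars of ipsilateral tMCAO at 24 h are the shortest, and Abcb1a forms the larger part of every bar.

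Across all 24 libraries, log2 levels of Abcb1a correlated with those of Abcg2 (Pearson r = 0.80) and Abcc4 (0.64) and inversely with those of Abcc1 (-0.73). After the group means were taken out, these values were 0.62, 0.12 and -0.46. They are descriptions over libraries that share groups, depth and normalisation. The genes most alike Abcb1a among 12158 genes with a mean above 50 were Tmtc1 (r = 0.95), Megf6 (0.93) and Crebl2 (0.93). Abcc4 was most alike Xdh (0.95), Fmo2 (0.91) and Lypd1 (0.90), and Abcg2 was most alike Chmp3 (0.94), Inpp5k (0.92) and Maf1 (0.91). For Abcc1 the nearest genes were Itga5, an integrin subunit for fibronectin (0.94), AI506816 (0.93) and Crlf2 (0.93). Abcc5 came closest to Dnmt3a, a DNA methyltransferase (0.89), Phf21a (0.89) and 2410089E03Rik (0.88). Abcc6 had no gene above Grb7 (0.77), followed by Enox2 (0.76) and Ushbp1 (0.76).

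Genes around efflux transport were counted in 5 lists, and the shares of all tested genes given above apply to them too. Of 28 other ABC transporter genes, 0 were higher and 6 lower in ipsilateral tMCAO against sham vessels at 24 h. The lowest were Abca8a (log2 fold change -1.57), Abca9 (-1.47) and Abca8b (-1.0), and without sham replicate 1 only 3 genes were called lower. At 7 days 3 were higher, namely Abcc3, which encodes Mrp3 (0.71), Abcb1b (0.65) and Abcd4 (0.59). Another 3 were lower, namely Abcg4 (-2.74), Abcc8, the sulfonylurea receptor subunit of potassium channels (-1.59), and Abca8b (-1.17). The higher 3 were not stable, with 0 called without sham replicate 3 or tMCAO replicate 1 and 1 called without sham replicate 2 or tMCAO replicate 3. Likewise 0 were called with centring on the endothelial markers or only the compared groups in the fit, and 6 without the limit on the fold change. The median log2 fold change of this list was -0.24 at 24 h and -0.02 at 7 days.

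Uptake carriers for organic anions work in the same endothelial membranes and pass some of their cargo on to Mrp pumps. Of 7 tested, 3 fell at 24 h, namely Slc22a8, which encodes Oat3 (log2 fold change -1.05), Slco1a4 (-1.03) and the thyroxine carrier Slco1c1 (-0.73), while the prostaglandin carrier Slco2a1 rose (1.69). The decreases rested on single libraries, with 1 called without sham replicate 1 and 0 without sham or tMCAO replicate 2. At 7 days Slco2a1 (1.82) and Slco2b1 (0.83) were higher and none was lower, and 1 of these was called without sham or tMCAO replicate 1.

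Glutathione and conjugation genes make or modify substrates of the Mrp pumps. Of 21 tested, 8 were higher and 0 lower at 24 h, with a median log2 fold change of 0.44. The largest increases were those of heme oxygenase Hmox1 (log2 fold change 3.73), the quinone reductase Nqo1 (2.02) and sulfiredoxin Srxn1 (1.69). Without tMCAO replicate 3, 2 genes of the list were called lower. At 7 days 2 were higher, the glucuronosyltransferase Ugt1a7c (1.67) and the sulfotransferase Sult1a1 (1.25), and 2 were lower, the cystine exchanger Slc7a11 (-1.74) and Cyp1b1 (-0.94). The higher count was 1 without sham replicate 1 or 2 or tMCAO replicate 1 or 3, and 3 without sham replicate 3. The lower count was 1 without sham replicate 1 or 3 or tMCAO replicate 2 or 3, and with median centring or only the compared groups in the fit.

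Of 19 tested receptors and transcription factors known to control efflux transporter genes, 16 were not called at 24 h. The vitamin D receptor Vdr was higher (log2 fold change 2.94, from 6.67 to 37 normalised counts on average), though it was not among the genes tested with a minimum mean of 20. The fatty acid sensor Ppara (-1.13) and the estrogen receptor Esr1 (-0.75) were lower, and only 1 of these was called when sham replicate 1, 2 or 3 or tMCAO replicate 1 or 2 was left out. At 7 days 0 of the 19 were called in either direction, and the median log2 fold change was 0.07. Of 17 genes for signalling, trafficking and membrane anchoring, 5 were higher and 1 lower at 24 h. The endothelin receptor Ednrb (2.5), moesin Msn, which links membrane proteins to actin (1.11), and the endothelin-converting enzyme Ece1 (0.90) rose, and the protein kinase C gene Prkcb fell (-1.21). Without sham replicate 3 or tMCAO replicate 1 or 2, 3 rather than 5 were called higher, as with centring on the endothelial markers, which also gave 2 rather than 1 lower, and 8 were called higher with only the compared groups in the fit. At 7 days 0 were higher and 2 lower, Prkcb (-1.19) and Prkca (-0.87).

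**Figure D4:**
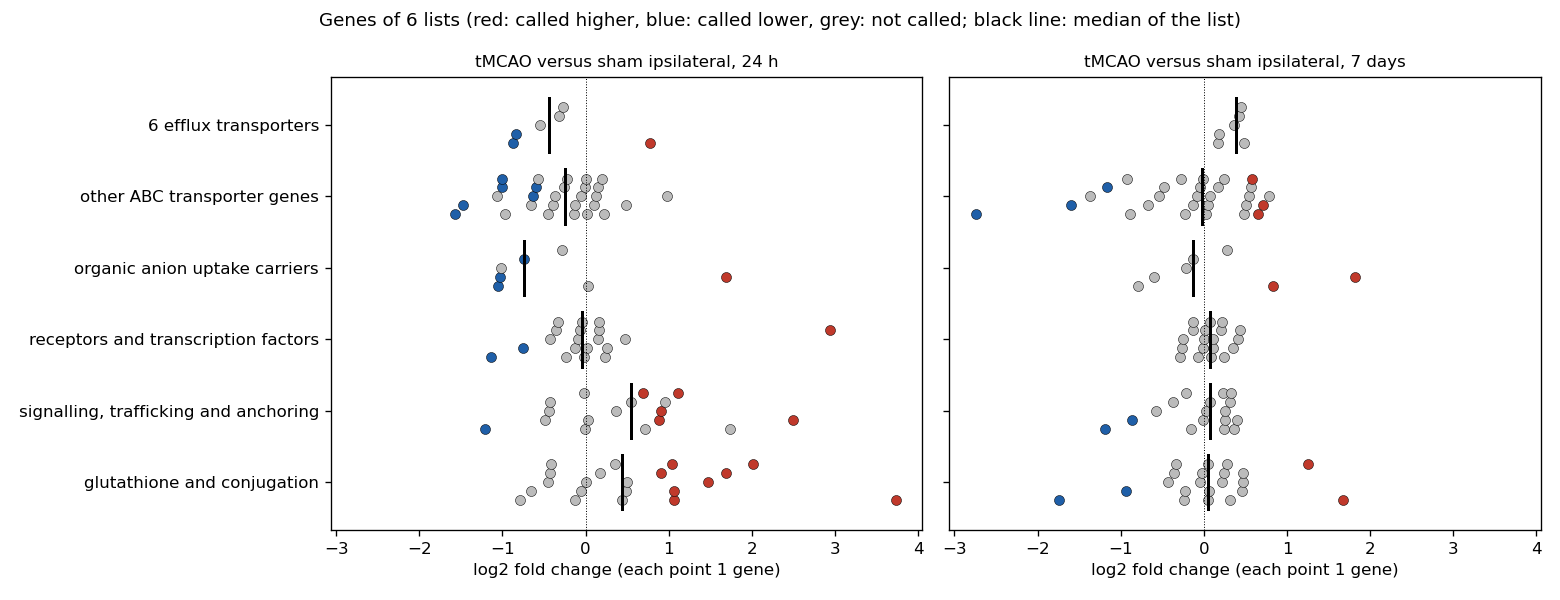
log2 fold change (horizontal axes) of single genes between ipsilateral tMCAO and sham vessels at 24 h (left) and 7 days (right), in 6 lists. Red points are genes called higher, blue those called lower, grey those not called, and black lines the median of the list, which for glutathione and conjugation genes is 0.44 at 24 h and 0.06 at 7 days.

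Microvessel preparations hold more than endothelium, and marker genes of other cells were read beside the transporters. In bulk samples fewer cells of a type and less RNA per cell cannot be told apart. The 12 endothelial markers summed to 256992 to 326652 normalised counts in ipsilateral tMCAO vessels at 24 h and to 255738 to 301694 in sham. Of these markers 1 was called higher (Emcn) and 0 lower, and the sums overlapped. Single endothelial markers went both ways without overlap, with Emcn (log2 fold change 0.85), Esam (0.50) and Eng (0.34) higher and Flt1 (-0.57, limma adjusted p = 0.036) and Erg (-0.35, limma adjusted p = 0.020) lower than in sham, of which Emcn alone passed the fold limit. They are named after their values were seen, and the part of endothelial content in the levels of the 6 genes was not tested. All 8 markers of neutrophils and monocytes were called higher at 24 h, with none at 0 in any library. Neuronal markers summed to 3031 to 3696 normalised counts after tMCAO and 6554 to 6861 in sham, and astrocyte markers to 10485 to 15753 and 15914 to 23329. Lower calls were made for 5 of 8 neuronal, 4 of 8 astrocyte, 2 of 7 oligodendrocyte and 2 of 10 pericyte and smooth muscle markers. Of 8 microglial and macrophage markers 1 was higher. None of 5 fibroblast, 6 choroid plexus, 2 T cell and 5 red blood cell markers was called.

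At 7 days, when no transporter of the 6 was called, lower calls were made for 7 of 8 neuronal, 4 of 8 astrocyte, 4 of 6 choroid plexus, 2 of 7 oligodendrocyte, 2 of 5 fibroblast, 1 of 10 pericyte and smooth muscle and 1 of 2 T cell markers. Of 8 neutrophil and monocyte markers 1 was higher, of 8 microglial and macrophage markers 1 was higher and 1 lower, and 0 of 12 endothelial and 5 red blood cell markers were called. Choroid plexus markers summed to 654 to 3142 normalised counts after tMCAO and 15871 to 29029 in sham. The part of these cells in the levels of the 6 transporters was not tested.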

How the data were processed

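Stranded, poly(A)-selected libraries of pooled microvessels were sequenced (24 libraries, 8 groups of 3). The submitters' processing notes name STAR 2.5.2b for alignment to mm10 (GRCm38), featureCounts 1.5.1 of the Subread package and DESeq2 1.6.2. Per the paper's methods, reads matching several genes were excluded. The authors deposited DESeq2-normalised counts rounded to whole numbers, so that the deposited values are a score relative to all 24 libraries and not raw reads. Size factors read from the steps between values ran from 0.805 to 1.238 and total reads from 13691467 to 20033951, as estimates. The column names gave group and replicate, and 0 per-sample columns were left out.

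From these values log2(x + 1) was formed, genes with a mean above 5 were kept, and limma 3.58.1 (R 4.3.3) with a mean-variance trend was fitted over all 8 groups, without a block, for 13 comparisons. The fit was tested on simulated data. Calls needed a fold change beyond 1.5 and a Benjamini-Hochberg adjusted p under 0.05. Confidence intervals are at 95%. Replicate libraries of a group correlated with r between 0.967 and 0.988. Exon lengths and transcripts came from GENCODE M21 and promoters from RefSeq (GRCm38.p6).

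Replicate numbers paired the hemispheres of sham mice, where deviations from the group means correlated by 0.145 to 0.410 at 24 h and 0.325 to 0.467 at 7 days for same-numbered libraries. For tMCAO hemispheres 1 or more pairs did not exceed 0.1.

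The 6 genes were always described. In each list up to 3 called genes with the largest increase and 3 with the largest decrease were named, and for each transporter the 3 genes with the highest correlation. The genes and lists were chosen with earlier results of these data known. Alternatives were another pseudocount, other filters, median centring, centring on the endothelial markers, a replicate block, a fit of the compared groups alone, dropping the 1.5-fold limit and leaving out single libraries.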

Additional observations from a re-analysis of the deposited data

Results flagged for a closer look

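For 3 of the 6 transporters the tMCAO effect against sham was called different between the times, by a test of the difference itself in limma. Of all tested genes 2.43% were called positive and 5.68% negative in this test. Only the call of Abcb1a held under all 20 alternatives. The log2 fold change at 7 days minus that at 24 h was 1.23 for Abcb1a (adjusted p = 0.0017), 1.32 for Abcc4 (adjusted p = 0.041) and 0.77 for Abcg2 (adjusted p = 0.047). Behind the value of Abcb1a stand log2 fold changes of -0.87 at 24 h and 0.36 at 7 days, of which that at 7 days was not called. For Abcc4 they were -0.84 and 0.48, and for Abcg2 -0.32 and 0.45, where none of the last 3 was called. All 3 tMCAO libraries lay below all 3 sham libraries at 24 h for each of these genes, where 49.0% of all tested genes were free of overlap. At 7 days the tMCAO libraries lay above for Abcb1a and Abcg2 and overlapped for Abcc4, where 30.0% of all tested genes were free of overlap. Over the alternatives the adjusted p ran from 0.0011 to 0.024 for Abcb1a, from 0.020 to 0.12 for Abcg2 and from 0.015 to 0.10 for Abcc4.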

How the results depend on the processing

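Over 1128 values of the 6 genes under alternatives, 1070 kept direction and call, 34 were no longer called, 14 were newly called and 10 reversed. Most of these values belong to genes and comparisons without a call in the main fit, which had no call to lose. Dropping the limit on the fold change cannot end a call either, so that the 1070 are not a measure of how stable the calls were. Against ipsilateral sham at 24 h, 1 to 2 genes were called lower when 1 library was left out, and at 7 days Abcc1 was called higher with no limit on the fold change. Between the tMCAO hemispheres at 24 h the genes called lower numbered 2 with a minimum mean of 20, 2 when centred on the endothelial markers, 2 with no limit on the fold change, 4 with median centring, 3 with only the compared groups in the fit and 1 to 2 when 1 library was left out. At 7 days 0 to 1 were called higher when 1 library was left out. For ipsilateral tMCAO vessels at 7 days against 24 h the genes called lower numbered 0 with median centring and 0 to 1 when 1 library was left out, and those called higher 1 to 3. The difference of the tMCAO effect between the times gave 1 to 2 genes when 1 library was left out. For the tMCAO hemispheres the shares of all tested genes called under these settings are not given here. The cause of these shifts was not tested.

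A block for the replicate number left 3 genes called lower between the tMCAO hemispheres at 24 h (Abcb1a, Abcc4 and Abcc6). There same-numbered pairs correlated by 0.0658 to 0.360, a hint from the data that the numbers pair. Other pairs correlated by at most 0.0306. Taking out the group means pushes these values down where same-numbered pairs are high, so that they are no separate hint. At 7 days it changed no call there, and the sham comparisons, where the numbers pair, had no change of call. Same-numbered tMCAO and sham libraries did not pair (mean correlation -0.161 at 24 h and -0.008 at 7 days), and the block changed no call of the 6 genes there. It ended the call of Abcc4 in the difference between the times (adjusted p = 0.057), and of the listed genes it left 2 of 6 other ABC genes and 0 of 3 uptake carriers called lower at 24 h and 0 of 3 other ABC genes called higher at 7 days. Centring on the endothelial markers moved the median log2 fold change of all genes at 24 h from -0.02 to -0.16. It also moved the genes called higher and lower from 1603 and 1316 to 1067 and 1843, and median centring moved them to 1330 and 1707.

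All reversed log2 fold changes were uncalled, and their range over single libraries left out is given with the library (at 7 days) that turned the sign. Between sham hemispheres at 7 days Abcc4 ran from -0.43 to 0.23 (contralateral replicate 3, and 0.17 for ipsilateral replicate 2) and Abcc5 from -0.19 to 0.041 (ipsilateral replicate 3). In contralateral tMCAO against sham vessels at 7 days Abcc4 ran from -0.14 (sham replicate 2) to 0.51 and Abcg2 from -0.21 (tMCAO replicate 3) to 0.22. Abcg2 ran from -0.014 to 0.42 between the tMCAO hemispheres at 7 days and from -0.34 to 0.099 between the times in contralateral tMCAO vessels (contralateral replicate 1 in both). From 24 h to 7 days in sham vessels Abcc4 ran from -0.50 to 0.091 on the ipsilateral (replicate 2) and from -0.52 to 0.14 on the contralateral side (replicate 2), and Abcc1 turned to -0.13 on the contralateral side when centred on the endothelial markers.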
